A study of Rattus norvegicus with 6 samples.

Results

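Podosome and focal adhesion adaptors are the cytoplasmic proteins that tie clustered integrins to actin and relay signals from them. The 8 genes described here are the kinase genes Src, Ptk2 and Ptk2b, the linker genes Tln1 and Vcl, the LIM-domain scaffold genes Pxn and Zyx, and Gsn, which encodes the actin-severing protein gelsolin. They were chosen by name for their place in these structures, but with earlier results of these arrays known, so their counts are a description and not a blind comparison with other genes. All 8 were found among the 14506 genes that the array annotation names by a single symbol. Each had 1 probe set. In osteoclasts and macrophages integrins gather in podosomes, short-lived dots with an actin core and a ring of talin, vinculin and paxillin. In fibroblasts and osteoblasts the same proteins build longer-lived focal adhesions with zyxin and actin bundles. A ring of podosomes seals the osteoclast to bone, and mice that lack Src have osteopetrosis because their osteoclasts do not resorb.

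The RNA was that of long bone cells of Sprague Dawley rats, 2 to 5 days old, which were freshly extracted and caught on plates coated with bovine milk osteopontin (OPN), a bone matrix protein that integrins bind, or with mouse prothrombin (PT), the precursor of thrombin. All 6 samples share this strain, age and extraction, and differ in the coating to which the cells adhered. PT replicates 1, 2 and 4 and OPN replicates 2, 3 and 4 were each hybridised to a whole-transcript rat gene array, which gives 3 arrays a coating. The cells were not purified by type, so each array reads a mixture. How many animals or preparations stand behind the arrays is not stated in the labels. The p-values therefore reflect the spread among these 6 samples, part or all of which may be technical. Array medians ranged from 207.8 to 231.4 units.

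The study sorted bone cells by adhesion to ask how the cells caught by each coating differ, and these 8 genes encode machinery that acts directly at such contacts. Gsn, Vcl and Src rose on OPN, by 2.25-fold, 1.54-fold and 1.38-fold. Zyx stood 1.33-fold higher and just missed the threshold, and Ptk2, Tln1, Pxn and Ptk2b differed by 1.16-fold or less without a call. A gene is called when limma's test over all 29215 rows of the table gives an adjusted p below 0.05, and folds are taken on log2(signal + 16), which understates changes of dim genes. In that test 3 of the 8 genes rose and 0 fell. Among all 14506 genes 7.62% were called higher and 1.12% lower on OPN, and among all rows 5.05% and 0.77%. The median log2 difference was 0.31 over the 8 genes and 0.04 over all genes. In the deposited values the arrays of both coatings did not overlap in 7 of the 8, the exception being Ptk2b, nor in 30.4% of all genes. Overlap was not recounted after scaling the arrays.

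**Figure D1:**
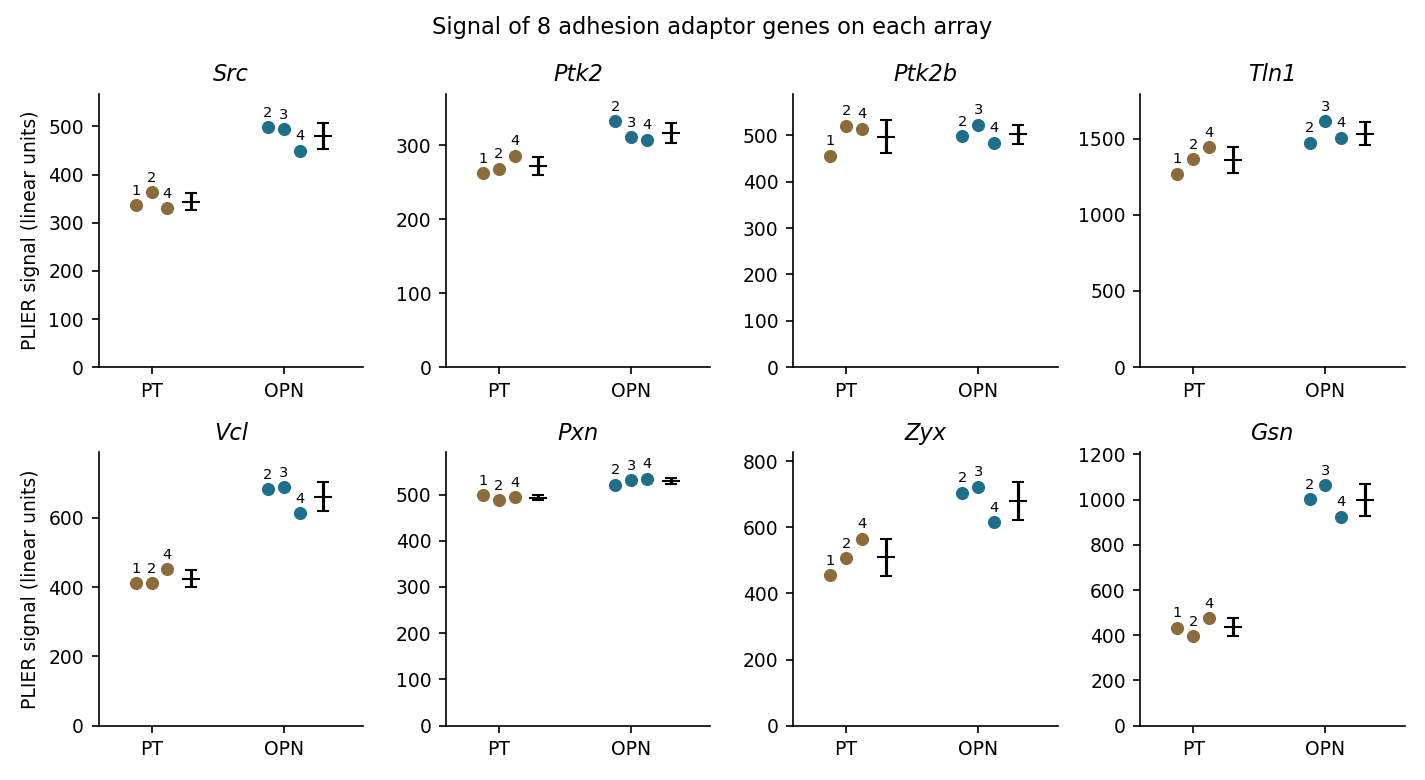
Linear PLIER signal of each gene on each of the 6 arrays (points, numbered by replicate), with the mean and SD of each coating (bars, n = 3). The axes start at 0. Gsn lies between 396 and 475 units on PT and between 924 and 1064 on OPN, while the Ptk2b points of both coatings share 1 range.

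**Figure D2:**
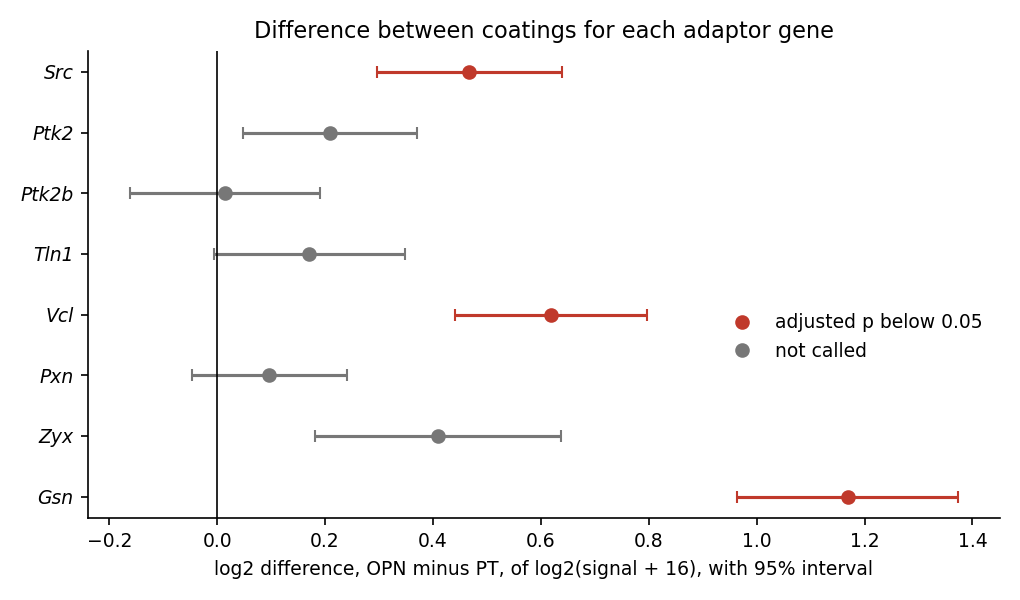
Log2 difference, OPN minus PT, of the 8 genes with its 95% interval from limma's fit. Gsn (1.17), Vcl (0.62) and Src (0.47) are called, and Ptk2b (0.01) lies at 0.

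Among the kinases, Src (probe set 10841624) rose. Src encodes the non-receptor tyrosine kinase that starts signalling at clustered integrins and drives the turnover of podosomes. Its signal was 336, 363 and 330.0 units on PT replicates 1, 2 and 4, and 498, 494 and 449.7 on OPN replicates 2, 3 and 4. The lowest OPN array thus stood clear of the highest PT array. Mean signal was 343 ± 17.7 on PT and 481 ± 26.8 on OPN (SD, n = 3), which gave a log2 difference of 0.47 (SE 0.08, adjusted p = 0.00685 in limma's test). The fold had a 95% interval of 1.23 to 1.56.

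Ptk2 (probe set 10904377) encodes focal adhesion kinase, which Src binds and activates in focal adhesions of most cell types. It gave 262, 268 and 285 units on PT and 332, 311 and 307 on OPN. All OPN arrays lay above all PT arrays, by a small step. The log2 difference of 0.21 (SE 0.07) was not called (adjusted p = 0.154 in limma's test), and its 95% interval ran from 0.05 to 0.37.

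Ptk2b (probe set 10784641) encodes Pyk2, the relative of focal adhesion kinase that prevails in osteoclasts and other blood-derived cells and is activated there when integrins bind. Its signal was 456, 521 and 514 units on PT and 498, 523 and 484 on OPN. The groups overlapped, and PT replicate 1 was the lowest array. The log2 difference of 0.01 (SE 0.08, adjusted p = 0.958 in limma's test) had a 95% interval from -0.16 to 0.19, so a rise as large as that of Src lies outside it. Its sign depends on the scaling: it was -0.053 with equal array medians and -0.064 with quantile normalisation.

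Both kinases of this family were also set against each other within each array. The log2 value of Ptk2 minus that of Ptk2b shifted by 0.20 from PT to OPN, with SDs of 0.079 and 0.081 between arrays of a coating. The arrays of the coatings did not overlap, and p was 0.1 in an exact permutation test (two-sided), the smallest that 3 against 3 arrays allow (0.1 adjusted over 3 such tests, n = 3). No such test can therefore pass 0.05.

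Of the linkers, Vcl was called and Tln1 was not. Vcl (probe set 10782247) encodes vinculin, which binds stretched talin and holds actin filaments to it. Its signal was 412, 411 and 452 units on PT and 682, 688 and 613 on OPN. Every OPN array exceeded every PT array by more than either coating's spread. It averaged 425 ± 23.3 on PT and 661 ± 41.7 on OPN (SD, n = 3), and the log2 difference was 0.62 (SE 0.08, adjusted p = 0.00180 in limma's test).

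Tln1 (probe set 10876337) encodes talin-1, which binds the tails of integrin beta chains and switches them to their binding form. It gave 1269, 1363 and 1445 units on PT and 1474, 1615 and 1504 on OPN. In the deposited values the groups came close to each other without overlapping. The log2 difference of 0.17 (SE 0.08, adjusted p = 0.299 in limma's test) was not called. It was 0.10 with equal array medians and 0.14 with quantile normalisation. Within each array the log2 value of Vcl minus that of Tln1 shifted by 0.45 from PT to OPN, with SDs of 0.053 on PT and 0.091 on OPN (exact two-sided permutation p = 0.1, the smallest possible with n = 3).

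The scaffold genes encode LIM-domain proteins that bind other adhesion proteins. Pxn (probe set 10762665) encodes paxillin, the docking protein of focal adhesion kinase, Pyk2 and vinculin. It gave 498, 488 and 494 units on PT and 521, 531 and 534 on OPN. Its arrays were the tightest of the 8 genes, with SDs of 5.27 units on PT and 6.85 on OPN. Although the groups did not overlap in the deposited values, the log2 difference was only 0.10 (SE 0.06, adjusted p = 0.507 in limma's test). It was 0.029 with equal array medians and 0.021 with quantile normalisation.

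Zyx (probe set 10855062) encodes zyxin, which joins focal adhesions under tension and brings in actin-elongating proteins of the Ena and VASP family. Its signal was 455, 507 and 566 units on PT and 704, 723 and 615 on OPN. The highest PT array and the lowest OPN array were both replicate 4 and did not overlap. The log2 difference of 0.41 (SE 0.10) had adjusted p = 0.0515 in limma's test, just above the threshold. It was called without PT replicate 4 (adjusted p = 0.0376) and with an offset of 64 (0.0194). Calls also came with rows of a mean signal of at least 50 only (0.0353) and with an intensity trend in the spread (0.0106). In the other 9 of 13 alternatives Zyx was not called. Among these, adjusted p in limma's test was 0.0571 with quantile normalisation, 0.190 without OPN replicate 3 and 0.426 with the replicate block. The log2 value of Zyx minus that of Pxn shifted by 0.31 between coatings, with SDs of 0.16 on PT and 0.13 on OPN (exact two-sided permutation p = 0.1, the smallest possible with n = 3).

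Gsn (probe set 10835757) showed the largest difference of the 8. Gelsolin cuts and caps actin filaments in response to calcium and phosphoinositides, a secreted form clears actin from plasma, and osteoclasts of mice without it fail to form podosomes. Its signal was 433, 396 and 475 units on PT and 1003, 1064 and 924 on OPN. The lowest OPN array was far above the highest PT array. It averaged 435 ± 39.7 on PT and 997 ± 70.3 on OPN (SD, n = 3), and the log2 difference was 1.17 (SE 0.09, adjusted p = 9.62e-05 in limma's test). The fold of 2.25 had a 95% interval of 1.95 to 2.59, and 98.7% of all genes had a smaller log2 difference.

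**Figure D3:**
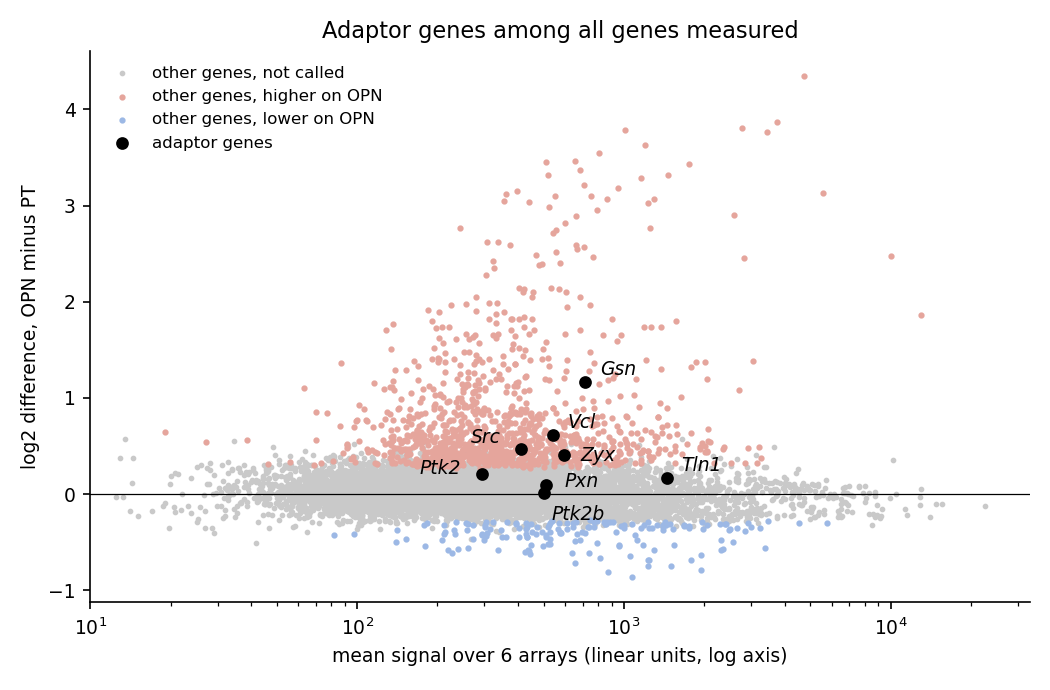
Log2 difference, OPN minus PT, against the mean signal over the 6 arrays (log axis) for 1 row per gene, with the 8 adaptor genes in black. A single gene with a mean signal under 10 is not drawn. The adaptor genes are brighter than at least 63.8% of all rows, and Gsn, Vcl and Src lie among genes called higher on OPN.

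Windows around 1 annotated transcript start of each of the 3 genes that rose are shown because these genes moved in the same direction. Those of Src and Gsn are not at the outer end of the gene: their starts lie 33072 and 26327 bases inside the annotated gene, that of Vcl 91 bases. Other starts of these genes were not used here, and the arrays do not show which start the cells used. Each window holds 250 bases before and 50 bases after its start and is taken from RefSeq on build GRCr8, read 5′ to 3′ along the gene's strand. Capitals mark matches of the Sp1 box GGGCGG on either strand, 2 of which overlap by 1 base in Vcl. The Src window holds no match.
Gsn, chr3:39008682-39008981, plus strand: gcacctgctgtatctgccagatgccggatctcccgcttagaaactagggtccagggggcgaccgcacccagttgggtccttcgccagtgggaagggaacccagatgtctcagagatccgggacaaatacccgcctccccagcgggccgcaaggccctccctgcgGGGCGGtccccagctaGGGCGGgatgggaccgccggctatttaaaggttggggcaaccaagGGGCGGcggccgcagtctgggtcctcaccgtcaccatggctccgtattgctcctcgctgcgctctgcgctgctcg
Vcl, chr15:3404751-3405050, minus strand: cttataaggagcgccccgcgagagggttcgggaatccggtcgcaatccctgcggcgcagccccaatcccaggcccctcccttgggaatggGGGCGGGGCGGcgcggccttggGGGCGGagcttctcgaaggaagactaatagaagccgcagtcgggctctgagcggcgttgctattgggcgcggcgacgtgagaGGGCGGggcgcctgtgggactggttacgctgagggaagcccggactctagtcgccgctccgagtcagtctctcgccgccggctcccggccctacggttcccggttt
Src, chr3:166544438-166544737, plus strand: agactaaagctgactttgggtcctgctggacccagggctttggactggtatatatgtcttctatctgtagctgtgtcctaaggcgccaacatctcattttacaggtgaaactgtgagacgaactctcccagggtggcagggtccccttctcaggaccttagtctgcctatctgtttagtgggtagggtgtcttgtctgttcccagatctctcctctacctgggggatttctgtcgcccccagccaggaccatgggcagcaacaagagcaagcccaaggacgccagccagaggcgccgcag

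Gsn held 3 Sp1 boxes, the nearest with its first base at position -25 from this internal start, and Vcl held 4, at -160, -155, -138 and -56. Windows were found for 6 of the 8 genes (Ptk2 and Ptk2b had none in the table used). A gene was counted when any of its windows matched, and Pxn and Zyx had several windows. By this count 3 of the 6 genes, Gsn, Vcl and Zyx, held the Sp1 box. Of all 33469 windows 33.1% held it, a share per window and not per gene. The CArG box of serum response factor, a regulator of many actin genes, and the AP-1 motif TGANTCA were found in 0 of the 6 genes. Of all windows 1.64% held the CArG box and 7.33% the AP-1 motif. The windows of Gsn and Vcl were 66.3% and 68.7% G or C, that of Src 55.0% and the median window 51.7%. The matches describe these letters only.

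Besides the 8 adaptors, 103 other genes of podosomes and focal adhesions were listed in 5 groups, of which 86 were measured. Of these 86, 20 rose and 0 fell on OPN, with a median log2 difference of 0.14, where 7.62% of all genes were called higher and the median was 0.04. The group of integrin-actin linkers, which also held Ctnna1 of cadherin junctions, rose most often, 6 of 14 measured. The gelsolin relatives did not rise at all, 0 of 5. Whether the groups differ in this was not tested.

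**Figure D4:**
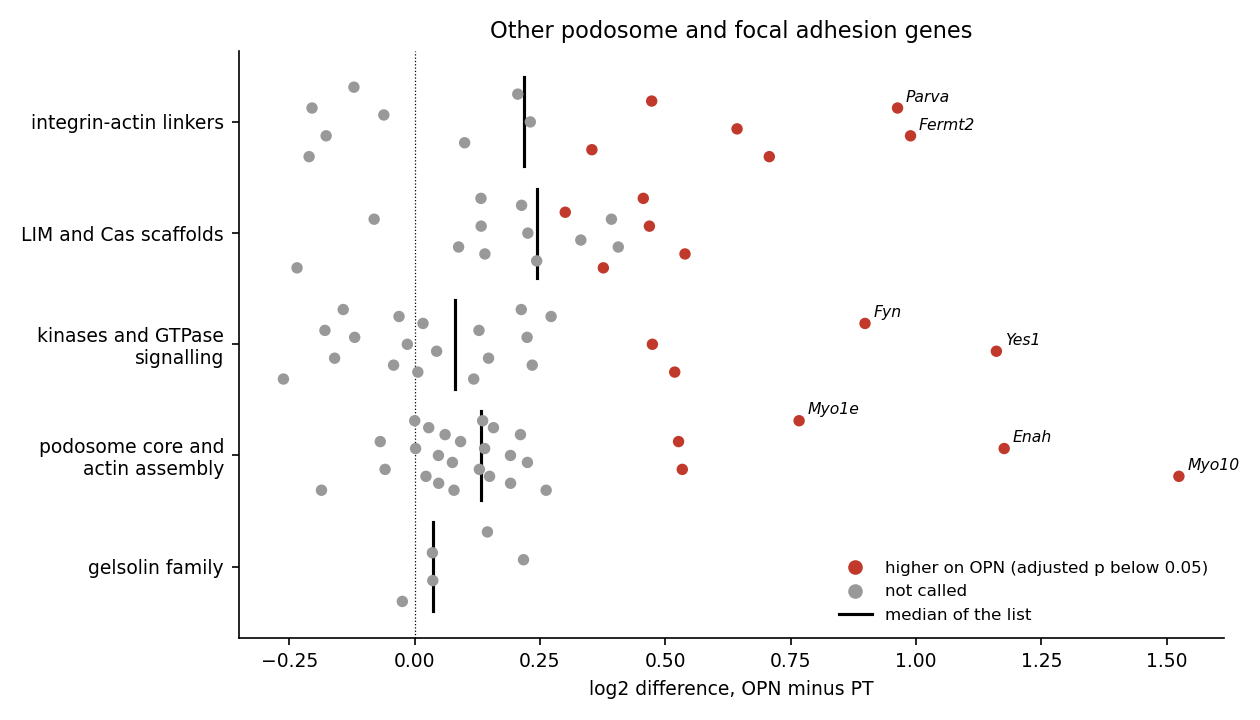
Log2 difference, OPN minus PT, of the measured genes in 5 groups of podosome and focal adhesion genes (points, 1 per gene, shifted vertically to separate them), with each group's median (line). Called genes are red. Myo10 (1.52), Enah (1.18) and Yes1 (1.16) lie farthest right, and no called gene lies below 0.

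Integrin-actin linkers had a median log2 difference of 0.22. Fermt2, which encodes kindlin-2, the partner of talin in switching integrins on, had 171, 176 and 179 units on PT and 368, 376 and 348 on OPN, a 1.98-fold rise (adjusted p = 4.20e-05 in limma's test). Parva, whose product binds integrin-linked kinase, rose 1.95-fold, and Flna, the gene of the actin cross-linker filamin A, 1.56-fold. Ctnna1, which encodes alpha-catenin, a relative of vinculin at cadherin junctions, rose 1.63-fold. Actn1 (log2 difference 0.47) and Ilk (0.35), for alpha-actinin-1 and integrin-linked kinase, were the other called genes. The call of Ilk was lost without each single array in turn (adjusted p from 0.0587 to 0.130) and with equal array medians (adjusted p = 0.0859).

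Of 17 measured scaffolds 5 rose, with a median of 0.24. They were Lasp1 (0.54), for an actin-binding LIM protein, Git1 (0.47), for a paxillin-binding regulator of Arf GTPases, Nedd9 (0.46), for a docking protein of the Cas family, Tgfb1i1 (0.38), for the paxillin relative Hic-5, and Pdlim7 (0.30), for a PDZ and LIM protein. Adjusted p in limma's test was 0.00684 for Lasp1 and 0.00951 for Git1. Nedd9 (0.0177), Tgfb1i1 (0.0331) and Pdlim7 (0.0422) were nearer the threshold. Several calls were lost with 5 arrays in place of 6, at log2 differences of like size. The count was 1 without OPN replicate 3 and 2 without OPN replicate 2 or PT replicate 2. Nedd9 lost its call when any of 4 arrays was left out, and its difference ranged from 0.41 to 0.54 over all 6 omissions. Tgfb1i1 (0.31 to 0.45) and Pdlim7 (0.27 to 0.34) lost theirs when any of 5 was left out, while among single arrays Git1 lost it only without OPN replicate 3 (adjusted p = 0.0552) and Lasp1 kept it without any 1 array. Pdlim7 also lost it with an offset of 1 (adjusted p = 0.0506) and with both scalings of the arrays (0.0827 and 0.0595). With an offset of 64 or an intensity trend 9 scaffolds were called.

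Of 22 measured signalling genes 4 rose. Fyn and Yes1 encode kinases of the Src family. Fyn had 546, 515 and 538 units on PT and 1005, 1085 and 936 on OPN, a 1.86-fold rise (adjusted p = 0.000184 in limma's test). Yes1 was dim, at 82.8, 58.0 and 56.9 units on PT and 173, 161 and 161 on OPN, and rose 2.23-fold. Ptpn12, a phosphatase gene whose product acts on Cas, rose 1.43-fold, and Cblb, a ubiquitin ligase gene, 1.39-fold. The Src family genes Lyn (-0.01), Fgr (-0.14) and Lck (0.23) were not called. Vav1 (-0.26), the gene of an exchange factor for Rac in blood cells, was not called here (adjusted p = 0.0796) and was called lower with an offset of 64, with an intensity trend and with both scalings of the arrays (adjusted p from 0.0187 to 0.0410).

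Of 28 measured genes of the podosome core and actin assembly 5 rose, with a median of 0.13. Myo10, the gene of a motor that carries integrins along filopodia, had 208, 210.1 and 184 units on PT and 581, 653 and 589.8 on OPN. This 2.88-fold rise was the largest among all 86 genes (adjusted p = 9.73e-06 in limma's test). Enah, for the zyxin-bound actin elongator Mena, rose 2.26-fold, and Myo1e, for a membrane-bound myosin, 1.70-fold. Pstpip1, for an adaptor of the Wiskott-Aldrich protein, rose 1.44-fold and Cttn, for cortactin, 1.45-fold. Was, the gene of the Wiskott-Aldrich protein itself, had a mean of 395 units on both coatings, and all 8 measured Arp2/3 complex genes were uncalled. Hcls1 (-0.19) was called lower only with quantile normalisation among the scalings (adjusted p = 0.0388).

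Gelsolin's relatives were not called. Capg, for a capping protein of macrophages, had a log2 difference of 0.22 (SE 0.10) and Flii 0.15 (SE 0.07), while Scin was at 0.035, Vil1 at 0.036 and Avil at -0.024. Scaling the arrays by either method put Scin and Vil1 below 0. Only Flii had arrays that did not overlap between coatings.

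By a rule that ranks genes on the root mean square distance of their centred log2 values over the 6 arrays, the profiles nearest to Gsn were those of Fkbp14 (distance 0.029), Angptl4 (0.035) and Loxl2 (0.055). Those nearest to Vcl were Ssr1, Cdh5 and Hdlbp (each 0.031), and those nearest to Src were Itga5 (0.028), Rhob and Slc35a2 (each 0.030). All 9 were themselves called higher on OPN, with log2 differences between 0.46 and 1.19. The distance is dominated by the difference between the coatings.

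Markers of several cell types moved on the same arrays. Summed over 11 osteoblast markers the signal was 56594 to 63186 units on OPN and 11094 to 12086 on PT, and 11 of 11 rose. Stromal markers rose in 11 of 11, with sums of 9341 to 10135 units on OPN and 2079 to 2164 on PT. Endothelial markers rose in 10 of 10 (3164 to 3341 against 1869 to 2011 units) and platelet markers in 7 of 7 (6211 to 6771 against 3166 to 3504 units). Of the osteoclast markers 7 of 10 rose (29370.3 to 32916 against 11633 to 13956 units). Most of each PT sum came from Car2, which was not called (log2 difference -0.21). Car2 had 7660, 9386 and 9646 units on PT and 7600, 8106 and 7313 on OPN.

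In the other direction, 8 of 12 macrophage markers fell, with sums of 10183 to 10900.3 units on OPN and 14193 to 14941 on PT. Of 9 smooth muscle markers 3 rose, Rgs5, Myl9 and Mcam (sums of all 9 were 8541 to 9152 against 7746 to 8390.0 units). Most of each sum came from Acta2, which was not called (log2 difference 0.06). Of 6 erythroid markers 1 fell (27741 to 29992 against 30892 to 35382 units). None of 8 neutrophil markers was called by limma, and their sums overlapped through PT replicate 4 alone. That array had 11061 units, PT replicates 1 and 2 had 7443 and 8366, and the OPN arrays had 10238 to 11274. Among these markers S100a8 had 1346 units on PT replicate 4 and 687 and 829 on the other PT arrays. PT replicate 4 also had the highest osteoclast, stromal, platelet, smooth muscle and erythroid sums among PT arrays. Leaving it out is therefore not a test of the neutrophil markers. Without PT replicate 4, Gsn (log2 difference 1.23), Vcl (0.66) and Src (0.44) were still called in limma's test, and Zyx (0.49) was called as well. No marker value on any array was below 1 unit, which does not show that every marker was above background. The part of these cell types in the differences of the adaptor genes was not tested. In RNA of mixed cells, a larger share of cells of 1 type and more RNA per cell cannot be told apart.

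**Figure D5:**
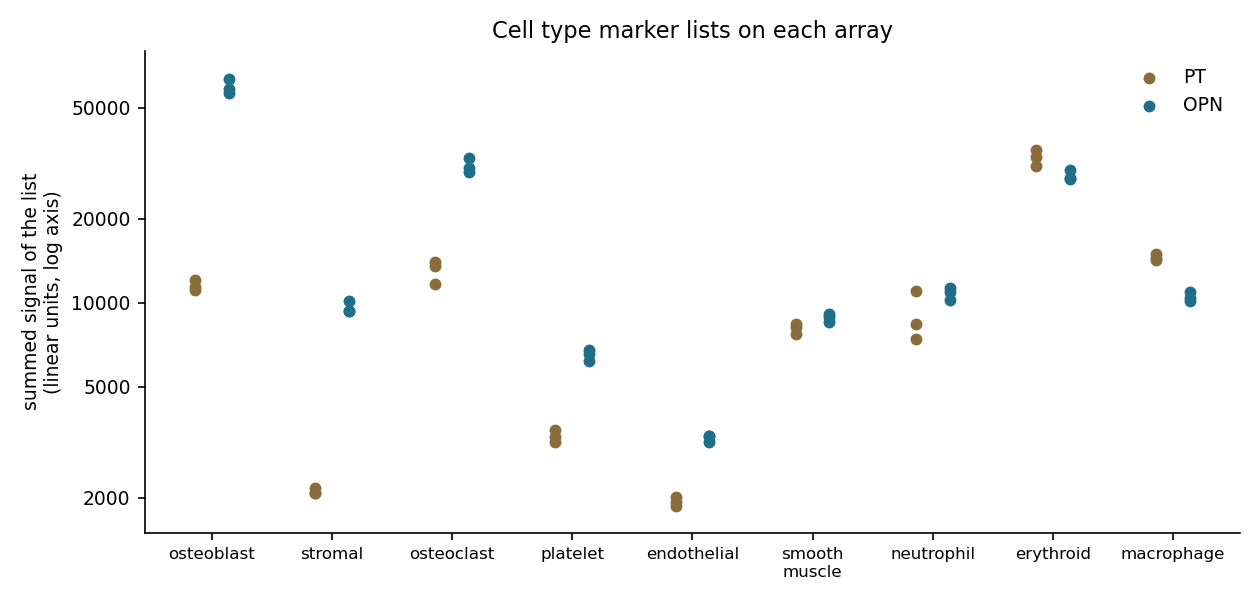
Summed linear signal of 9 lists of cell type markers on each array (points, log axis), 3 arrays per coating. Osteoblast, stromal, osteoclast, platelet and endothelial sums are higher on every OPN array, macrophage sums are lower, and neutrophil sums overlap through PT replicate 4.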

How the data were processed

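RNA of PT-adherent and OPN-adherent cells was labelled from 300 ng per sample without removal of ribosomal RNA, per the labels' protocols. The deposited values are 1 linear intensity per probe set and array, made by the authors with Affymetrix Expression Console and PLIER, per the submitters' processing notes. Software versions, background correction and any scaling between arrays were not given in the sources used here. No detection calls were used, so dim rows hold an unknown share of background. Precision is limited by the 3 arrays per coating.

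Rows were named through the platform annotation: 15310 of 29215 had 1 symbol, 323 several and 13582 none, and 0 symbols changed when 15279 rows were matched to the GRCr8 gene table. For genes with several rows the brightest was used. Log2(intensity + 16) was fitted for all rows in limma 3.58.1 (lmFit, eBayes; R 4.3.3), with the coating as the only term and Benjamini-Hochberg adjustment over all rows. The fit was run on simulated data with independent normal noise at its own fitted spread. Such data cannot test the effects of scaling or of shared preparations.

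The members and lists were chosen with earlier results of these data known. Named genes are the 8 members, per list the 4 genes with the smallest p, all measured gelsolin relatives, and the 3 nearest profiles of each called member. Actn1, Ilk, Pdlim7, Cttn, the single cell type markers and the uncalled genes of the other lists were named after their values were seen. Alternatives changed the offset (1 or 64), the scaling, a filter at a mean signal of 50, the spread model, the replicate block and each array in turn.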

Additional observations from a re-analysis of the deposited data

How the results depend on the processing

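Gsn was called in all 13 alternatives (log2 difference 1.09 to 1.23), Src and Vcl in 12, and Ptk2, Tln1, Pxn and Ptk2b in none. Zyx, at 0.41, was called with an offset of 64 (0.38), with the filter on mean signal (0.41), with an intensity trend (0.41) and without PT replicate 4 (0.49, adjusted p = 0.0376 in limma's fit). When 1 array was left out Zyx ranged from 0.33 to 0.49, and Ptk2b from -0.044 to 0.048. Ptk2b was -0.053 with equal array medians, -0.064 with quantile normalisation and -0.073 with the replicate block. Replicate numbers 2 and 4 occur in both coatings, with no label that makes them pairs, and deviations of same-numbered arrays correlated at -0.08 and 0.07. A fit with the replicate block leaves few residual degrees of freedom. It takes the coating difference from replicates 2 and 4 only, since PT replicate 1 and OPN replicate 3 have no same-numbered array. This fit called 1 of the 8 genes (Gsn), with Src at 0.43 and Vcl at 0.57 not called. That block gave 3 linkers, 0 scaffolds, 2 signalling genes and 3 podosome genes higher, and 618 rows higher and 48 lower.

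Scaffolds called higher numbered 9 with an offset of 64 or an intensity trend, and 1 to 5 with 1 array left out. Among signalling genes 1 was called lower with an offset of 64, equal array medians, quantile normalisation or an intensity trend, and 1 podosome gene with quantile normalisation. Over all rows 382 were lower with an offset of 64, 508 with an intensity trend, 551 with equal medians and 745 with quantile normalisation. With 1 array left out 928 to 1357 rows were higher and 95 to 181 lower. The share of calls that were higher, 86.8%, became 68.4% with equal medians and 64.6% with quantile normalisation, which moved the median of all rows from 0.03 to -0.04 and -0.03. Scin became -0.027 and -0.021 and Vil1 -0.029 and -0.037 with these scalings, and with the block Vil1 was -0.0088 and Avil 0.010. With 1 array left out Scin ranged from -0.035 to 0.080, Vil1 from -0.071 to 0.16 and Avil from -0.042 to 0.0087. No member had several rows, so the mean over rows was not run. No depth or background value was used to bound dim rows.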

Other observations

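Relatives within several adhesion gene families differed in size or sign, in values picked after they were seen and with no test of the difference between relatives. Among kindlins, Fermt2 had a log2 difference of 0.99, Fermt3, the form of blood cells, 0.23 (adjusted p = 0.116 in limma's fit) and Fermt1, the form of epithelia, -0.21 (adjusted p = 0.308) at a low signal. Among parvins, Parva had 0.96, Parvb -0.061 and Parvg, the form of blood cells, -0.20 (adjusted p = 0.298). Tgfb1i1 had 0.38 and Pxn 0.10, while Lpxn, the paxillin relative of leukocytes and osteoclasts, had -0.23 (adjusted p = 0.170). Cttn had 0.53 and Hcls1, its relative in blood cells, -0.19 (adjusted p = 0.186). Enah had 1.18, while its relatives Evl and Vasp had 0.14 and 0.092. Genes of blood cells did not move one way: Pstpip1 rose (0.53, adjusted p = 0.00192), and Rac2 (0.27), near its widely expressed relative Rac1 (0.21), and Coro1a (0.19) were not called.

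Zyx ranged from 455 to 566 units over the PT arrays, an SD of 55.6, against 5.27 for Pxn at a like signal. Zyx, Tln1, Gsn and Vcl were all highest on PT replicate 4 among PT arrays, and all highest on OPN replicate 3 among OPN arrays. The summed neutrophil markers were also highest on PT replicate 4 among PT arrays (11061 units against 7443 and 8366). So were the osteoclast, stromal, platelet, smooth muscle and erythroid sums, while the osteoblast, endothelial and macrophage sums were not. Among OPN arrays, all these sums but the platelet and endothelial ones were highest on OPN replicate 3. The part of any of these cell types in this was not tested.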
